A study of Mus musculus with 12 samples.

Results

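The enzymes described here are 10 acyltransferases and lipins that build triglyceride from glycerol 3-phosphate, Gpat4, Gpam, Gpat3, Agpat3, Agpat4, Agpat5, Lpin1, Lpin2, Dgat1 and Dgat2. They were chosen by name for their place in this route, out of the 47937 genes in the table of read counts, and all 10 were found in it. On GRCm38, in the GENCODE M21 annotation, Gpat4 lies at chr8:23171265-23208346, Gpam at chr19:55067268-55127238, Gpat3 at chr5:100845713-100899102, Agpat3 at chr10:78269178-78352489, Agpat4 at chr17:12118704-12219645 and Agpat5 at chr8:18846277-18891361. Lpin1 lies at chr12:16535669-16610966, Lpin2 at chr17:71182560-71249817, Dgat1 at chr15:76502015-76511953 and Dgat2 at chr7:99153658-99182719, and all 10 are protein-coding. RNA was sequenced from macrophages grown out of the bone marrow of C57BL/6 mice, aged 6 to 8 weeks according to the methods of the study, with CSF-1 at 20 ng/ml for 7 days. There were 4 groups of 3 libraries each, all kept in CSF-1. Resting cells (M0) received nothing more, the IFNγ + LPS group received IFNγ at 50 ng/ml and LPS at 20 ng/ml for 18 h, and each of these had a counterpart with T863 at 50 μM throughout the 18 h. T863 is a small molecule that blocks the enzyme DGAT1 and is called DGAT1i below. The labels give no time for M0, and the methods of the study name no solvent control for T863 in cultured cells. In M0 with DGAT1i, 2 of the 3 library descriptions number the compound differently, while the source of all 3 names T863. The labels name a kit for low input RNA for the libraries, while the methods of the study name another, stranded mRNA kit, and neither says whether the counting used the strand. The comparisons ask how the enzymes of this route responded to inflammatory activation and whether blocking the last of them altered their RNA.

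Triglyceride synthesis by the glycerol phosphate route runs in 4 steps. Glycerol-3-phosphate acyltransferases (GPATs) put the first fatty acyl chain on glycerol 3-phosphate, acylglycerol-phosphate acyltransferases (AGPATs) add the next and give phosphatidate, lipins remove the phosphate to give diacylglycerol, and diacylglycerol acyltransferases (DGATs) add the last chain. Phosphatidate and diacylglycerol are also the starting points for membrane phospholipids, and in macrophages the triglyceride is kept in lipid droplets.

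Each library held between 4996014 and 6621671 reads assigned to genes, and 1 CPM, the read count relative to library size after scaling by the trimmed mean of M-values (TMM), was worth between 4.28 and 7.58 reads. All 7 macrophage markers passed the filter on low counts. Their summed level per library was 12944 to 14197 CPM in M0, 15951 to 17985 in M0 with DGAT1i, 8225 to 8876 with IFNγ + LPS and 7818 to 8775 with both, and the adipocyte markers Adipoq, Plin1 and Cfd had 0 reads in all 12 libraries. All 5 genes used to check the stimulus were higher with IFNγ + LPS, and 4 of them passed the filter only through stimulated libraries. Replicate libraries were not copies of each other, with counts that varied 1.98 to 4.23 times as much as sampling of reads would make them. The labels do not say whether replicates came from separate animals, so the p-values measure the spread between these libraries. In bulk RNA, fewer cells of a kind and less RNA per cell cannot be told apart.

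The steps of the route differed in how evenly their RNA was spread over isoenzymes. Measured as level in CPM per kilobase of exon, Gpat4 was highest in M0 at 12.02 ± 0.209 (mean ± SD, n = 3 here and throughout), followed by Agpat3 at 10.2 ± 0.306 and Lpin2 at 7.95 ± 0.706. Lpin1 (4.27 ± 0.386), Dgat1 (4.17 ± 0.773) and Agpat4 (3.93 ± 0.0747) formed a middle group on this scale, in which neighbouring genes overlapped between libraries. Agpat5 (3.62 ± 0.153) and Gpam (2.75 ± 0.0935) followed on the same scale, each without overlap with the next. Gpat3 (0.276 ± 0.0674) and Dgat2 (0.0746 ± 0.0239) were the lowest of the 10 per kilobase. With IFNγ + LPS the order on this scale became Lpin2 (18.1 ± 0.468), Gpat4 (13.2 ± 0.0408), Agpat4 (11.1 ± 0.118), Agpat3 (8.81 ± 0.885) and Dgat1 (6.13 ± 0.418), with no overlap between neighbours down to Gpam (1.63 ± 0.203), which overlapped with Gpat3 (1.23 ± 0.239). Lpin1 moved from the fourth place to the last, at 0.317 ± 0.137 per kilobase, where it overlapped with Dgat2 at 0.468 ± 0.170. These levels depend on the length used, and per kilobase of the longest transcript Lpin2 rather than Gpat4 was highest in M0, at 17.3 ± 1.53 against 14.6 ± 0.253.

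**Figure D1:**
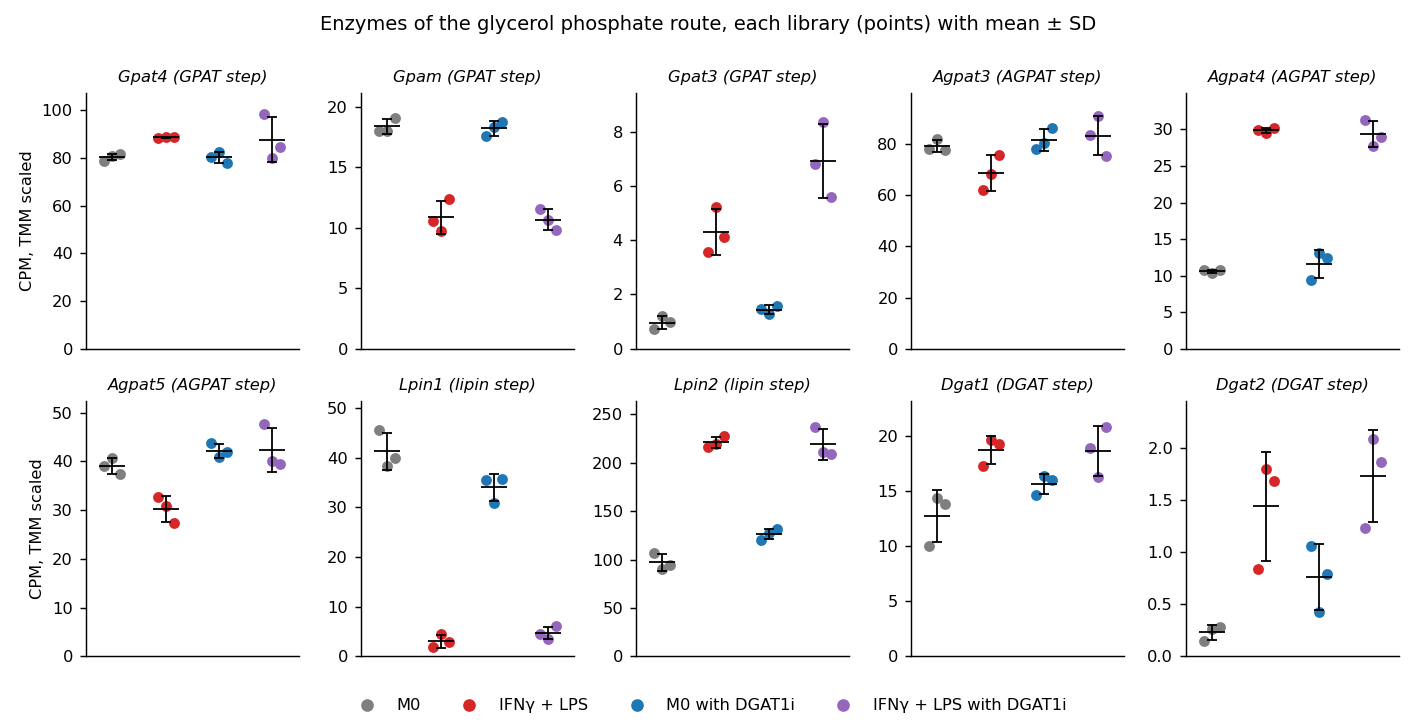
Level of each enzyme (y axis, CPM after TMM scaling, from 0) in the 4 groups along the x axis; each point is 1 library and the black bars are the mean ± SD (n = 3). Lpin1 lies at 38.4 to 45.5 CPM in M0 and at 1.89 to 4.50 CPM with IFNγ + LPS, while Gpat3, Agpat4 and Lpin2 lie higher with IFNγ + LPS than in M0.

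Among the 9 enzymes that passed the filter, Lpin1, Gpat3, Agpat4 and Lpin2 had the largest log2 differences between IFNγ + LPS and M0 by TMM, while by library size alone Gpam and Agpat5 exceeded Lpin2 and Gpam exceeded Agpat4, and the RefSeq sequence before their starts of these 4 is shown for their place under TMM. Each line gives the 250 bases upstream of the start, 5′ to 3′ on the strand of the gene, on GRCm38.p6. They lie at chr12:16610967-16611216 on the minus strand for Lpin1, and on the plus strand at chr5:100845979-100846228 for Gpat3, chr17:12119034-12119283 for Agpat4 and chr17:71183282-71183531 for Lpin2, the first of 3 Lpin2 starts listed. The 30 bases after this Lpin2 start were found in no GENCODE M21 transcript of the gene, while those after each of the other Lpin2 starts were found in 1. In GENCODE M21 the genes Gpat3, Agpat4 and Lpin2 begin upstream of the windows given here, so their windows lie within the annotated gene. Capitals mark matches on either strand to the GC box GGGCGG or the E-box CACGTG.
Lpin1: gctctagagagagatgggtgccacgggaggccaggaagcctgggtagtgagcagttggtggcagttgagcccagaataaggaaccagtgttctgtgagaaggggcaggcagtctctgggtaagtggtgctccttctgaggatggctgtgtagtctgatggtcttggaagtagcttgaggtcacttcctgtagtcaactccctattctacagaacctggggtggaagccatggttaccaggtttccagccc
Gpat3: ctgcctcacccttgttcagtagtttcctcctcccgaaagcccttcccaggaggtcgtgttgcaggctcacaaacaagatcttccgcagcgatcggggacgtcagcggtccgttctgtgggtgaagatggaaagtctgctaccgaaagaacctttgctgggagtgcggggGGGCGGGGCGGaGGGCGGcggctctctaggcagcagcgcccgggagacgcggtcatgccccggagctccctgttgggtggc
Agpat4: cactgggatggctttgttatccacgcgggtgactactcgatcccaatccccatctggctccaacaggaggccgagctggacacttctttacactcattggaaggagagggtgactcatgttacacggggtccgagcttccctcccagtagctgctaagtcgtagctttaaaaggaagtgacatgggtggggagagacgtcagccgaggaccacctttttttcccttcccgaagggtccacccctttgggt
Lpin2: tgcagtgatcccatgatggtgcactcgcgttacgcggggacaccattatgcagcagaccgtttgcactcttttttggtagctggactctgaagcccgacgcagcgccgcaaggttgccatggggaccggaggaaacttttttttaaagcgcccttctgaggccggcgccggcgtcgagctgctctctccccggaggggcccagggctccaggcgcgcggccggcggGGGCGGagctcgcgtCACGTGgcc
The Gpat3 window holds 3 GC boxes, of which the first and the next share a base, and lies within an exon of the antisense gene 4930458D05Rik. The Lpin2 window holds 1 GC box and 1 E-box, and the Lpin1 and Agpat4 windows hold neither. CG dinucleotides numbered 1 for Lpin1, 10 for Agpat4, 19 for Gpat3 and 26 for Lpin2. Of 32851 RefSeq promoters of this length, 32.7% hold the GC box and 6.02% the E-box. The other motifs searched on both strands were the GAS element TTCNNNGAA (7.02% of promoters), the core of the interferon-stimulated response element GAAANNGAAA (2.98%), the NF-κB consensus (7.25%) and the sterol regulatory element TCACNCCAC (1.05%), and none of these matched in the 4 windows shown. Promoters were matched for 6 of the 10 genes, with 9 starts in all, and not for Dgat1, Dgat2, Gpat4 and Agpat5. Across the other 5 of these starts, the NF-κB consensus matched before Agpat3, in 3 overlapping places, and before the Lpin2 start at chr17:71183978, and the GC box matched before that same start and before 1 of the starts of Gpam. All of these motifs were chosen with the results known, and a match is a description of the sequence only.

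IFNγ + LPS moved isoenzymes of the AGPAT and lipin steps in opposite directions. Gpat3, Agpat4, Lpin2 and Dgat1 were higher than in M0, and Lpin1, Gpam, Agpat5 and Agpat3 were lower. Of the 9 enzymes tested, 4 were called higher and 4 lower (adjusted p below 0.05 in edgeR's quasi-likelihood test, Benjamini-Hochberg over 11760 genes), and Gpat4 was not called. The 4 higher calls include Gpat3. It passed the filter on low counts only through the stimulated libraries, so that a difference favoured its being tested. In this comparison 73.3% of all genes tested were called, 37.1% higher and 36.2% lower, and the count among the enzymes is to be read beside this high share. The median log2 change over the enzymes was 0.14, beside 0.0064 over all genes tested. Scaling by library size alone, in place of TMM, moves the median of all genes to -0.46 and the share of calls that are higher from 50.6% to 25.0%, and it takes away the Dgat1 call (log2 0.09) and turns Gpat4 (log2 -0.33). Relative to the median of all genes, Dgat1 was at 0.55 and Gpat4 at 0.13 by library size. By TMM these values were the same, since a change of scaling moves all genes by about the same amount.

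At the GPAT step, Gpat4 supplied most of the RNA in every group, Gpam fell, and Gpat3 lay higher with IFNγ + LPS. Gpat3, an enzyme of the endoplasmic reticulum on chromosome 5, had 5, 9 and 7 reads in the M0 libraries, or 0.726, 1.20 and 0.975 CPM. With IFNγ + LPS it had 17, 29 and 22 reads, or 3.58, 5.22 and 4.12 CPM, so that the groups did not overlap. The fitted difference was 4.39-fold (log2 2.13, SE 0.34), given here as a description since the filter let Gpat3 in only through stimulated libraries. Gpat3 shares 1311 of its 3502 exon bases with other genes, 1052 with the antisense gene 4930458D05Rik and 259 with Gm42987 on its own strand. Its reads, level and share of the step are uncertain to that extent. In the counts, 4930458D05Rik was given 0 reads in all 12 libraries and Gm42987 0 or 1 read in each. Gpam, the GPAT of the mitochondrial outer membrane, lay at 18.02, 17.98 and 19.1 CPM in M0 and at 10.5, 9.72 and 12.4 CPM with IFNγ + LPS. All stimulated libraries were below all M0 libraries, and Gpam fell by 0.75 on the log2 scale (SE 0.14, edgeR adjusted p = 2.11e-06). Gpat4, the GPAT of the endoplasmic reticulum and lipid droplets, was at 80.3 ± 1.40 CPM in M0 and 88.5 ± 0.272 CPM with IFNγ + LPS. Its log2 difference of 0.14 missed the threshold with TMM (95% interval 0.0037 to 0.28, edgeR adjusted p = 0.0596), although the groups did not overlap, and it was -0.33 by library size alone, with adjusted p from 2.35e-05 to 0.177 over its alternatives.

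The share of a step does not depend on how libraries are scaled. Of the summed GPAT level per kilobase, Gpat3 made up 1.83% ± 0.426 in M0 and 7.60% ± 1.39 with IFNγ + LPS. Gpam went the other way, from 18.3% ± 0.421 to 10.1% ± 1.20 of that sum. Gpat4 held 79.9% ± 0.340 in M0 and 82.0% ± 1.33 with IFNγ + LPS, and Gpat2, with 0 or 1 read per library, made up at most 0.436% in any library.

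At the AGPAT step, Agpat4 rose and Agpat3 and Agpat5 fell. Agpat4 was measured at 10.8, 10.4 and 10.7 CPM in M0 and at 29.9, 29.5 and 30.2 CPM with IFNγ + LPS. These values were far apart compared with the spread of either group, and the increase was 2.81-fold (log2 1.49, SE 0.12, edgeR adjusted p = 3.44e-16). Agpat5 was lower by 0.37 on the log2 scale (SE 0.10, edgeR adjusted p = 4.90e-04), at 39.0 ± 1.65 CPM in M0 and 30.3 ± 2.68 CPM with stimulation. Agpat3 was at 78.2, 82.0 and 77.7 CPM in M0 and at 61.9, 68.2 and 75.7 CPM with IFNγ + LPS. The stimulated libraries all lay below those of M0, but the log2 difference of -0.21 (SE 0.07, edgeR adjusted p = 0.0112) no longer passed without M0 replicate 2 or without IFNγ + LPS replicate 1, and its adjusted p ran from 1.27e-11 to 0.130 over the alternatives. Agpat1 and Agpat2, which belong to the same step and were not among the 10, moved in opposite directions. Agpat1 rose by 0.38 (log2, edgeR adjusted p = 8.22e-06, but -0.09 by library size alone), and Agpat2 fell by 0.62 on the log2 scale (edgeR adjusted p = 5.50e-05). As shares of the summed AGPAT level per kilobase, Agpat1 was highest in both groups, at 43.4% ± 2.59 and 48.6% ± 2.49. Agpat4 went from 8.16% ± 0.148 in M0 to 19.7% ± 0.340, from the fourth place to the next after Agpat1. Agpat5 shares 2043 of its 10783 exon bases with the antisense gene Gm35934, so its reads are likewise uncertain if the counting did not use the strand.

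The lipins moved in opposite directions, and the split of the RNA between them changed. Lpin1, a phosphatidate phosphatase that is also known as a coactivator of transcription, was measured at 45.5, 38.4 and 40.0 CPM in M0, from 313, 288 and 287 reads. With IFNγ + LPS it was at 1.89, 4.50 and 2.81 CPM, from 9, 25 and 15 reads. Its level with stimulation was 0.0764 of that in M0 (log2 -3.71, SE 0.17, edgeR adjusted p = 3.58e-27), and all 19 alternatives kept the call, with log2 values from -4.18 upward. Lpin2, the other lipin detected, moved the opposite way, from 107, 90.7 and 94.1 CPM to 216, 219.6 and 227 CPM. The increase was 2.27-fold (log2 1.19, SE 0.06, edgeR adjusted p = 8.43e-25). Lpin3 had 0 reads in all 12 libraries. Of the summed lipin level per kilobase, Lpin1 made up 34.9% ± 0.0533 in M0 and 1.72% ± 0.733 with IFNγ + LPS, the remainder being Lpin2. The RNA of the step was thus split between 2 lipins in M0 and came almost only from Lpin2 after stimulation.

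At the DGAT step, Dgat1, the target of T863, was the main enzyme in every group. Dgat1 lay at 10.0, 14.4 and 13.8 CPM in M0 and at 17.3, 19.6 and 19.3 CPM with IFNγ + LPS. The lowest stimulated library was above the highest M0 library, and the increase was 1.47-fold (log2 0.55, SE 0.14, edgeR adjusted p = 2.91e-04). This increase depends on the scaling, since by library size alone the log2 change was 0.09 (adjusted p = 0.570, the highest of its alternatives, the lowest being 1.52e-04). Dgat2, which makes triglyceride by a protein unrelated in sequence to Dgat1, had 1, 2 and 2 reads in M0 and 4, 10 and 9 reads with IFNγ + LPS and was the only one of the 10 that failed the filter. Its summed reads gave a ratio of 6.34 after scaling, with an exact 95% interval from 2.36 to 21.4 that covers counting error only. Fitted without the filter, where 40.6% of genes were called, its log2 change was 2.55 (SE 0.67, edgeR adjusted p = 4.93e-04). Of the summed DGAT level per kilobase, Dgat1 nevertheless made up 98.3% ± 0.281 in M0 and 93.0% ± 2.05 with IFNγ + LPS.

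**Figure D2:**
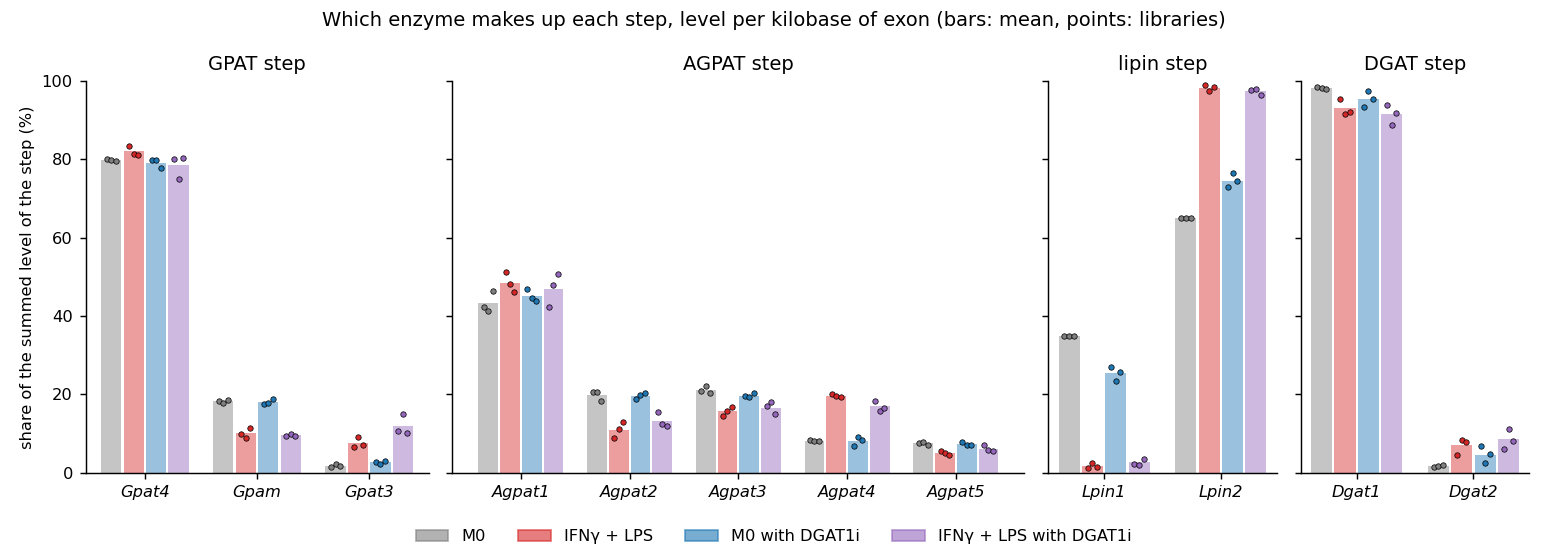
Share of each enzyme in the summed level per kilobase of its step (y axis, %, from 0) by step and gene along the x axis; bars are group means and points are the 3 libraries of each group. Gpat2 and Lpin3 are in the sums but too low to draw. The lipin panel shows Lpin1 going from 34.9% in M0 to 1.72% with IFNγ + LPS, and the AGPAT panel shows Agpat4 going from 8.16% to 19.7%.

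With DGAT1i present in both groups, Agpat4 (log2 1.34), Lpin2 (log2 0.79) and Gpat3 (log2 2.25) were higher with IFNγ + LPS, and Lpin1 (log2 -2.86) and Gpam (log2 -0.77) were lower. These 5 of the 9 tested were called by TMM, 3 higher and 2 lower, where 70.6% of all genes were called, 35.3% in each direction. Gpat3 had 9 to 12 reads per library in M0 with DGAT1i and 24 to 40 with stimulation, and since the filter let it in through its stimulated libraries its call is not a separate sign of the response. By library size alone 8 enzymes were called, where 77.7% of all genes were, and 8 without DGAT1i, where 79.4% were. The libraries of these groups are not those of the comparison without DGAT1i. Lpin1 went from 35.5, 30.8 and 35.8 CPM in M0 with DGAT1i to 4.53, 3.55 and 6.07 CPM in IFNγ + LPS with DGAT1i, which was 0.138 of the resting level (edgeR adjusted p = 1.97e-22). Agpat4 lay at 9.43, 13.1 and 12.4 CPM and then at 31.3, 27.7 and 29.0 CPM, a 2.53-fold increase (edgeR adjusted p = 2.46e-14). Dgat1, Gpat4, Agpat3 and Agpat5 overlapped between the groups, with log2 differences of 0.25, 0.13, 0.03 and 0.0083 by TMM that all turned negative by library size alone (-0.17, -0.29, -0.39 and -0.41), where Gpat4, Agpat3 and Agpat5 passed as lower (edgeR adjusted p = 1.89e-04, 4.97e-06 and 5.59e-05). That scaling moves the median of all genes to -0.43 in this comparison. Relative to the median the 4 differences were 0.26, 0.14, 0.04 and 0.02 under either scaling. This sameness is built in, since a change of scaling moves all genes by about the same amount, and it does not tell which scaling is right. Without replicate 2 of IFNγ + LPS with DGAT1i, Dgat1 (log2 0.34, adjusted p = 0.0401) and Gpat4 (log2 0.19, adjusted p = 0.0228) passed as higher. For Agpat3 the 95% interval was -0.12 to 0.18 and for Agpat5 it was -0.17 to 0.19. Dgat2 had 8, 3 and 6 reads in M0 with DGAT1i and 6, 10 and 8 reads in IFNγ + LPS with DGAT1i, a ratio of 2.24 after scaling with an exact 95% interval of 1.16 to 4.45 for counting error, and it was not called when fitted by edgeR without the filter (adjusted p = 0.0879).

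**Figure D3:**
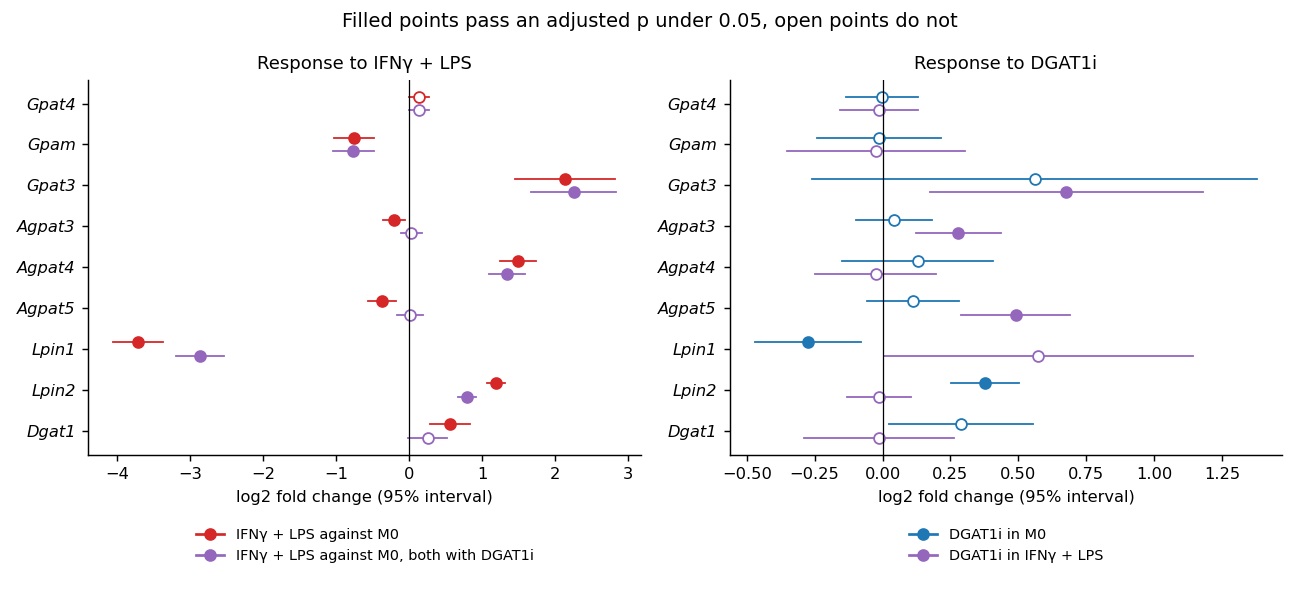
Log2 fold change of the 9 enzymes tested (x axis, with 95% interval; TMM scaling) by gene (y axis), for the response to IFNγ + LPS without and with DGAT1i on the left and for the response to DGAT1i in M0 and in IFNγ + LPS on the right; the x axes differ in range. Filled points pass an adjusted p under 0.05. On the left Gpat3, Agpat4 and Lpin2 are to the right of 0 in both comparisons, and Lpin1 and Gpam to the left. Dgat1, Agpat3 and Agpat5 are filled without DGAT1i and open with it. Library size scaling, not drawn here, would move all points on the left by about the shift of the median of all genes. That shift is -0.46 without and -0.43 with DGAT1i. Without DGAT1i it takes away the Dgat1 call and turns Gpat4. With DGAT1i it turns Dgat1, Gpat4, Agpat3 and Agpat5 negative, and Gpat4, Agpat3 and Agpat5 then pass as lower.

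Blocking DGAT1 in resting cells moved the 2 lipins in opposite directions and gave no call for the other 7 enzymes tested. Lpin2 was at 121, 127 and 131 CPM with DGAT1i against 107, 90.7 and 94.1 CPM without it, a 1.30-fold increase (log2 0.38, SE 0.06, edgeR adjusted p = 2.68e-06) that passed in all alternatives. Lpin1 was lower, at 34.0 ± 2.78 CPM against 41.3 ± 3.73 CPM (log2 -0.27, SE 0.10, edgeR adjusted p = 0.0319). The Lpin1 call did not hold with DESeq2 (adjusted p = 0.103), without M0 replicate 1 or without M0 with DGAT1i replicate 2, over a range of 0.0089 to 0.214. The share of Lpin1 in the summed lipin level per kilobase was 34.9% ± 0.0533 in M0 and 25.4% ± 1.82 with DGAT1i, with no overlap. Across all genes tested, 24.4% were called in this comparison, 11.0% higher and 13.4% lower, against 1 and 1 of the 9 enzymes. Dgat1 itself was at 12.7 ± 2.36 CPM without and 15.6 ± 0.904 CPM with its inhibitor, a log2 difference of 0.29 (95% interval 0.02 to 0.55) that did not pass (edgeR adjusted p = 0.107), although the groups did not overlap. Dgat2 had 5 reads in all in M0 and 17 with DGAT1i, a ratio of 3.31 after scaling (exact 95% interval 1.17 to 11.5), with no overlap between the groups and an adjusted p of 0.149 when fitted by edgeR without the filter. For Gpat4, Gpam and Agpat3 the log2 differences lay between -0.01 and 0.04, with 95% intervals from -0.24 to 0.22 at the widest, and each crossed 0 under some alternatives. Gpat3 (log2 0.56, 95% interval -0.26 to 1.38), Agpat4 (0.13, -0.15 to 0.41) and Agpat5 (0.11, -0.06 to 0.28) were not called either, although the Gpat3 and Agpat5 libraries did not overlap between M0 and M0 with DGAT1i.

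In stimulated cells DGAT1i went with higher levels of Agpat5, Agpat3 and Gpat3, and with no call for a lower level. These were 3 of the 9 enzymes, where 29.8% of all genes tested were called, 13.5% higher and 16.3% lower. Agpat5 was at 32.6, 30.8 and 27.3 CPM with IFNγ + LPS and at 47.6, 40.1 and 39.5 CPM with IFNγ + LPS and DGAT1i. The groups did not overlap, and the increase of 1.41-fold (log2 0.49, SE 0.10, edgeR adjusted p = 1.04e-04) passed in all 19 alternatives. Agpat3 was at 68.6 ± 6.90 and 83.2 ± 7.77 CPM, groups that overlapped by 1 library each, with a log2 difference of 0.28 (SE 0.08, edgeR adjusted p = 0.0043) that no longer passed without IFNγ + LPS replicate 1 or without replicate 2 of the inhibitor group. Gpat3 had 17, 29 and 22 reads against 33, 40 and 24, or 4.31 ± 0.836 against 6.91 ± 1.37 CPM. Its log2 difference of 0.68 (SE 0.25, edgeR adjusted p = 0.0344) was lost with DESeq2, without the filter and in 4 of the fits that left out a library, with an adjusted p of up to 0.211. Lpin1 was higher by 0.57 (log2, 95% interval 0.0042 to 1.14) but did not pass (edgeR adjusted p = 0.124), except without IFNγ + LPS replicate 2. The values of Dgat1 (log2 -0.01, 95% interval -0.29 to 0.26), Gpat4 (-0.16 to 0.13), Lpin2 (-0.13 to 0.10), Agpat4 (-0.25 to 0.20) and Gpam (-0.35 to 0.30) were centred near 0. Dgat2 had 23 reads in all with IFNγ + LPS and 24 with DGAT1i as well, a ratio of 1.17 after scaling (exact 95% interval 0.633 to 2.17).

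Markers of neutrophils moved with the response to DGAT1i in stimulated cells. Their summed level over 8 genes was 15.2 to 25.5 CPM per library with IFNγ + LPS and 63.0 to 81.0 CPM with IFNγ + LPS and DGAT1i, and the 4 of them that could be tested, Ltf, Ngp, S100a8 and S100a9, were all called higher, while Ly6g was at 0 reads throughout. Summed levels in M0 were 31.6 to 38.7 CPM and in M0 with DGAT1i 22.9 to 29.0 CPM. With IFNγ + LPS against M0, Ltf (log2 -2.93) and Ngp (log2 -2.60) were called lower, with DGAT1i in both groups Ngp, S100a8 and S100a9 were called higher, and with DGAT1i in M0 none of the 4 passed (edgeR adjusted p from 0.0720 to 0.222). The summed level of 4 B cell markers was 2.03 to 2.66 CPM in M0, 0.531 to 1.85 in M0 with DGAT1i, 0.211 to 0.562 with IFNγ + LPS and 0.209 to 0.700 with both. Cd79b, the only one of them tested, passed the filter only through unstimulated libraries and was called lower with IFNγ + LPS in both comparisons and with DGAT1i in M0. The adipocyte list followed Fabp4, which macrophages also express. Its summed level was 31.8 to 36.9 CPM in M0, 63.7 to 77.4 CPM in M0 with DGAT1i, 6.53 to 11.0 CPM with IFNγ + LPS and 20.5 to 23.3 CPM with DGAT1i as well. Fabp4 was called lower with IFNγ + LPS (log2 -2.05) and higher with DGAT1i in both M0 (log2 1.04) and stimulated cells (log2 1.41). Of the 7 macrophage markers, IFNγ + LPS gave 3 higher and 4 lower calls. DGAT1i gave 3 higher and 1 lower in M0, and it gave 1 higher and 3 lower in stimulated cells. In these comparisons 73.3%, 24.4% and 29.8% of all genes tested were called. Whether any of these marker changes has a part in the results for the enzymes was not tested.

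The response to DGAT1i differed between resting and stimulated cells for 3 of the 9 enzymes. The difference is the log2 change by DGAT1i in IFNγ + LPS minus that in M0, and it was called for 18.5% of all genes, 8.66% above 0 and 9.80% below 0. For Lpin2 it was -0.39 (SE 0.09, edgeR adjusted p = 5.29e-04), with a change of 0.38 in M0 and -0.01 in stimulated cells, and it passed in all 18 alternatives. For Lpin1 it was 0.85 (SE 0.30, edgeR adjusted p = 0.0392), with changes of -0.27 and 0.57, but it was lost without the filter and in 6 fits that left out a library. For Agpat5 it was 0.38 (SE 0.13, edgeR adjusted p = 0.0344), with changes of 0.11 and 0.49, and it was lost with DESeq2, without the filter and in 7 such fits. Adjusted p over the alternatives ran up to 0.211 for Lpin1 and 0.149 for Agpat5. Gpat3, whose changes were 0.56 in M0 and 0.68 in stimulated cells, had a difference of 0.12 with a wide 95% interval, from -0.93 to 1.17. The same contrast is also the difference between the responses to IFNγ + LPS with and without DGAT1i, and it was not called for Dgat1 (-0.30, edgeR adjusted p = 0.291) or Agpat3 (0.24, edgeR adjusted p = 0.106), whose response to the stimulus had passed by TMM without DGAT1i and not with it. The Agpat3 difference did pass by library size alone (adjusted p = 0.0499) and without IFNγ + LPS replicate 3 (adjusted p = 0.0453). Each of the 4 groups enters these comparisons more than once, so that a low or high library in M0 or in IFNγ + LPS weighs on several of them.

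**Figure D4:**
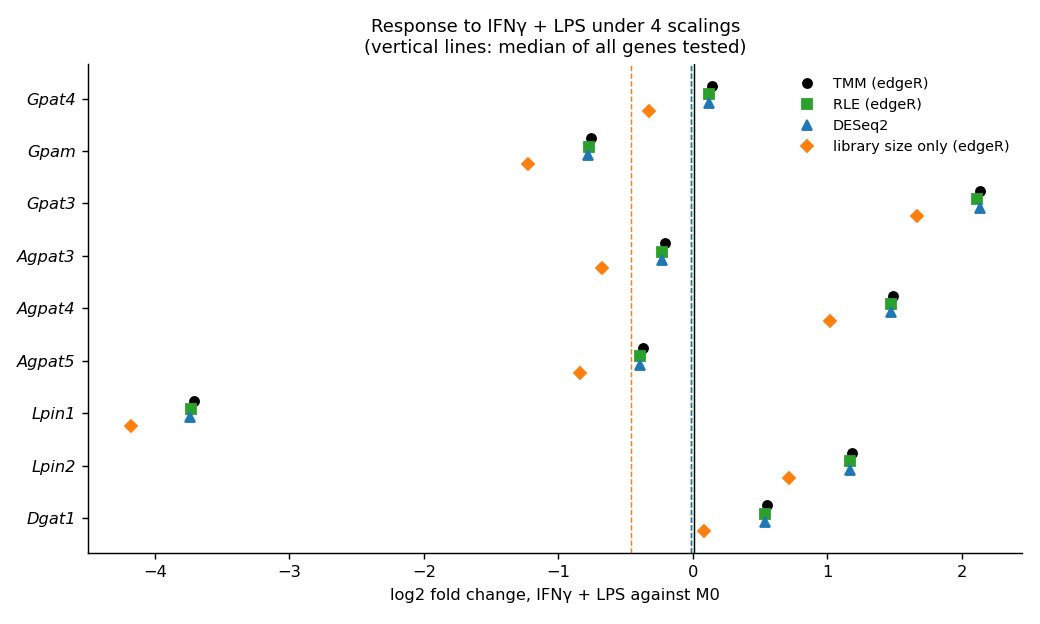
Log2 fold change of the 9 enzymes tested in IFNγ + LPS against M0 (x axis) by gene (y axis), under TMM, RLE and library size scaling in edgeR and in DESeq2; vertical lines are the median of all genes tested under each. Library size scaling moves every gene by about the shift of the median, which is -0.46, so that Dgat1 comes to 0.09 and Gpat4 to -0.33, while Gpat3, Agpat4 and Lpin2 stay above 0 and Lpin1, Gpam, Agpat5 and Agpat3 below 0.

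Genes that feed the route or draw on its intermediates were read from lists written by function. For glycerol 3-phosphate, 4 of 5 genes tested were called higher with IFNγ + LPS and 1 lower (median log2 1.52), the higher ones including Aqp9, which passed the filter only through stimulated libraries. Gpd2, the mitochondrial glycerol 3-phosphate dehydrogenase, rose 5.39-fold and Gpd1l fell to 0.343 of its M0 level (edgeR adjusted p = 2.48e-34 and 2.29e-20), and the fitted difference of the glycerol channel Aqp9 was 5.58-fold. For acyl-CoA, 3 of 6 rose and 2 fell (median log2 0.13). Acsl1, a long-chain acyl-CoA synthetase, rose from 46.7 ± 0.296 to 2198 ± 75.0 CPM, or 47.1-fold (edgeR adjusted p = 1.95e-55), and was lower by 0.45 (log2) with DGAT1i in stimulated cells (edgeR adjusted p = 3.72e-10). Acsl3, a synthetase found on lipid droplets and the endoplasmic reticulum, fell from 26.9 ± 1.79 to 3.32 ± 1.41 CPM and the fatty acid transporter Slc27a1 fell to 0.572 of its level. Acsl5 rose 1.23-fold by TMM, a change that turned to a log2 of -0.17 by library size alone. These lists, like the enzymes, are to be read beside the 73.3% of all genes that were called.

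The phosphatase that activates lipins, made of Ctdnep1 and Cnep1r1, had both subunits called higher with IFNγ + LPS, at 1.69-fold and 1.31-fold by TMM, of which Cnep1r1 turned to a log2 of -0.08 by library size alone. The third lipin regulator tested, Mtor, was not called (log2 0.07). Soat2, which esterifies cholesterol and is of the same family as Dgat1, went from 0.926 ± 0.0517 to 5.91 ± 0.827 CPM (6.29-fold), from 6 to 7 reads per library in M0, and Soat1 was not called (log2 0.02). Enzymes of the monoacylglycerol route and the other DGAT2 relatives, Mogat1, Mogat2, Awat1 and Awat2, had between 0 and 7 reads in any group. Among genes that use phosphatidate and diacylglycerol, 6 of 18 rose and 8 fell (median log2 -0.22), where 37.1% of all genes tested were called higher and 36.2% lower. Plpp1, a phospholipid phosphatase, rose from 1.38 ± 0.574 to 88.2 ± 7.67 CPM and Plpp3 from 2.95 ± 0.907 to 30.8 ± 2.79 CPM. DGAT1i lowered Plpp1 by 0.96 (log2) in stimulated cells and raised Plpp3 by 0.91 (edgeR adjusted p = 4.98e-11 and 3.28e-10). For DGAT1i in stimulated cells, 7 of these 18 genes were called higher and 5 lower, where 29.8% of all genes tested were called. The diacylglycerol kinase Dgkd fell to 0.164 of its M0 level (edgeR adjusted p = 7.91e-40), and Dgkg, another kinase of this family, had 33 reads in M0 and 2 with IFNγ + LPS, a ratio of 0.0836 with an exact 95% interval of 0.0097 to 0.327. Among the acyltransferases that remodel lysophospholipids, 2 of 8 rose and 4 fell (median log2 -0.51), beside the same 37.1% and 36.2% of all genes. Lpcat2 was up 4.84-fold and Mboat7 1.25-fold by TMM (log2 -0.15 by library size alone). Mboat1 was at 0.0856 and Lpcat4 at 0.215 of their M0 levels. Of these genes and those that feed the route, Aqp9, Soat2 and Plpp1 passed the filter only through stimulated libraries, and Dgkg, Mboat1 and Lpcat4 only through unstimulated ones, so that a difference was built into their being tested.

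The genes whose log2 CPM ran most like 3 of the enzymes over the 12 libraries were found by the root mean square difference of values centred on their means, among 9877 or 9878 candidates. For Dgat1 they were Zcchc9 (0.0864), Ginm1 (0.112) and Zbtb24 (0.115), beside a spread of Dgat1 itself of 0.270. For Gpat3 they were Pgm1 (0.185), which converts glucose phosphates, Slc2a1 (0.219), the glucose transporter GLUT1, and Dusp1 (0.228), a phosphatase of MAP kinases, beside 1.02 for Gpat3 itself. For Dgat2, with 1 to 10 reads per library, they were Nkiras1 (0.278), Gm11427 (0.284) and Fth1 (0.312), the heavy chain of ferritin, beside 0.789. Slc2a1, for instance, was at 45.4 CPM in M0, 189.5 CPM with IFNγ + LPS, 57.3 CPM in M0 with DGAT1i and 240.8 CPM in IFNγ + LPS with DGAT1i, an order of groups that is also that of Gpat3. The 12 libraries fall into 4 groups, so that the measure describes likeness over 4 conditions rather than 12 independent points.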

How the data were processed

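The authors deposited raw read counts per gene for 12 libraries, made by a pipeline of their institute and not normalized. The submitters' processing notes name GRCm38 and DESeq2. Which aligner, counter and annotation release they used is not given in the sources used here. Of the identifiers, 47224 matched symbols in GENCODE M21 without the version, 39106 of them with it, and 25746 of 47937 genes had no reads. The analysis used edgeR 4.0.16 (limma 3.58.1) in R 4.3.3. filterByExpr kept 11760 genes, libraries were scaled by TMM, and glmQLFit (robust) was fitted to all 12 libraries with 1 mean per group. The 5 contrasts were tested with the quasi-likelihood test and Benjamini-Hochberg adjustment over all genes kept, at 0.05. The study names DESeq2 without a design, and DESeq2 1.42.0 was 1 of the alternatives, beside RLE or library size scaling, no filter, a mean CPM of at least 1, only the groups compared, a replicate block and each library left out. The script was tested on simulated data. Level per kilobase used the union of exons or the longest transcript. BLAST 2.17.0 found no transcript copies other than the antisense overlaps. Promoter sequences are from RefSeq on GRCm38.p6. Plots were made in Python 3.11.15 using matplotlib 3.10.9.

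The enzymes, the lists and the motifs were chosen with earlier results of these data known. Genes named were the 10 enzymes, the other enzymes of the route that were tested, up to 2 called increases and 2 called decreases by IFNγ + LPS from each other list, and the 3 genes most like Dgat1, Dgat2 and Gpat3. Soat1, Mtor and the marker genes were added after their values were seen, as were the values with DGAT1i of genes outside the 10. Intervals of read ratios cover counting error only.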

Additional observations from a re-analysis of the deposited data

Results flagged for a closer look

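The response to DGAT1i differed between M0 and IFNγ + LPS for 3 of the 9 enzymes tested by edgeR's quasi-likelihood test of the difference itself (Benjamini-Hochberg over 11760 genes), where 18.5% of all genes tested were called. For Lpin2 the difference was -0.39 on the log2 scale (adjusted p = 5.29e-04), the libraries with DGAT1i being higher in M0 and overlapping in IFNγ + LPS. For Lpin1 it was 0.85 (adjusted p = 0.0392) and for Agpat5 0.38 (adjusted p = 0.0344), calls that held in 11 and 9 of 18 alternatives. With 3 libraries a group, no library was tested as an outlier.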

How the results depend on the processing

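Gpat3 passed the filter only through stimulated libraries, and its calls for IFNγ + LPS are left out here. Of the other 19 calls among the enzymes, 12 held under every alternative and 7 were lost under at least 1. Those that held include Gpam, Agpat4, Lpin1 and Lpin2 in both comparisons of IFNγ + LPS with M0. By library size alone, 8 enzymes rather than 5, and 77.7% rather than 70.6% of all genes, were called for IFNγ + LPS with DGAT1i in both groups, where Dgat1 came to -0.17, Gpat4 to -0.29, Agpat3 to -0.39 and Agpat5 to -0.41. For IFNγ + LPS against M0 the same scaling turned Gpat4 (-0.33), Agpat1 (-0.092), Acsl5 (-0.17), Cnep1r1 (-0.075) and Mboat7 (-0.15), and for DGAT1i in M0 it turned Agpat3 (-0.015). DESeq2 called 1 enzyme rather than 2 for DGAT1i in M0. Without the filter 1 rather than 3 was called for how the responses to DGAT1i differed, and in the comparison with DGAT1i in both groups Agpat3 was at -0.022 and Agpat5 at -0.044. Fits of only the groups compared turned Gpat4 (0.00043) for DGAT1i in M0, and Dgat1 (0.0063), Gpat4 (0.0057) and Lpin2 (0.0053) for DGAT1i in IFNγ + LPS. For the difference between the responses, Gpat4 turned to 0.0059 with RLE, 0.039 by library size and 0.0056 with DESeq2, and Gpam to 0.0049, 0.037 and 0.0040. Leaving out each library in turn gave 7 to 9 calls for IFNγ + LPS against M0, where Gpat4 passed in 2 of the fits (adjusted p = 0.0357 and 0.0462), 5 to 7 with DGAT1i in both groups, 1 to 2 for DGAT1i in M0, 1 to 4 for DGAT1i in IFNγ + LPS and 1 to 3 for the difference. For values that crossed 0 in those fits, the ranges were -0.038 to 0.096 (Agpat3) and -0.082 to 0.056 (Agpat5) for IFNγ + LPS with DGAT1i in both groups, -0.023 to 0.017 (Gpat4), -0.036 to 0.015 (Gpam) and -0.0017 to 0.074 (Agpat3) for DGAT1i in M0, -0.096 to 0.072 (Dgat1), -0.11 to 0.044 (Gpat4), -0.11 to 0.078 (Gpam), -0.077 to 0.010 (Agpat4) and -0.078 to 0.014 (Lpin2) for DGAT1i in IFNγ + LPS, and -0.071 to 0.28 (Gpat3), -0.10 to 0.047 (Gpat4) and -0.095 to 0.091 (Gpam) for the difference. The cause was not tested. Whether the replicate numbers pair the libraries is not given by the labels and cannot be told from weak correlations. Same-numbered libraries had correlations of -0.022 to 0.069 (median 0.012) in their deviations from the group means, and 0 of 18 pairs were over 0.1. For libraries with other numbers the correlations were -0.058 to 0.038 (median -0.0045). With the replicate number as a block, 8635, 8310, 2959, 3568 and 2268 genes were called in the 5 comparisons and no call among the enzymes changed. With the longest transcript as the length, 10 of the 28 shares moved by over 1 SD, and the largest move was 4.93 percentage points. Dgat2 and Gpat3 in M0, with 5 and 21 reads in all, are limited by depth.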
